A study of Mus musculus with 2 samples.

Results

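The cells described here are mature neutrophil-like cells that carried ample RNA, found in cultured mouse myeloid-derived suppressor cells (MDSCs), a mixed population of immature myeloid cells known for holding back T cells. They were chosen by their own transcript counts. A member had at least 200 detected genes, under 10% mitochondrial UMIs (unique molecular identifiers, each counting 1 captured molecule) and at least 2000 UMIs. It had at least 3 UMIs in the sum of Cxcr2, Mmp9, Retnlg, Il1r2 and Slfn4. Camp, Ltf and Ngp, which fill the specific granules of younger neutrophils, made up under 1% of its UMIs. Mpo, Elane, Prtn3 and Ctsg, which fill the primary granules of neutrophil precursors, made up under 0.5%, and the proliferation genes Mki67 and Top2a had under 5 UMIs together. The rule found 611 of 3710 kept cells, 470 in the DMSO library and 141 in the Selinexor library.

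Each group was 1 library, with no replicate. Both libraries came from cells grown for 4 days with recombinant IL-6 and GM-CSF at 40 ng/mL each. The DMSO culture received the vehicle, and the Selinexor culture received 50 nM selinexor, a small molecule that binds exportin 1, the nuclear export receptor encoded by Xpo1. Cells were tagged on their surface, sorted as live CD11b+ cells, and pooled across cultures ahead of 10x Genomics droplet capture. The labels used here name no strain, sex or age. With 1 library per group no test could be made, and every interval given here is a 95% interval that covers counting error alone.

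Neutrophils mature in an ordered programme. Primary granule proteins are made first, specific granule proteins next, and gelatinase granule proteins and the chemokine receptor Cxcr2 last, while the cell leaves the cycle and the total RNA of the cell declines. Late neutrophils carry large amounts of the calcium-binding S100a8 and S100a9, make Il1r2, a decoy receptor that captures interleukin-1, and in mouse hold high levels of the stefin A family of cysteine protease inhibitors. Exportin 1 recognises leucine-rich signals in its cargo, which includes many transcription factors and tumour suppressors, and moves it out of the nucleus in a cycle driven by the small GTPase Ran.

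The members made up 27.0% of the 1743 kept DMSO cells (interval 24.9 to 29.1%) and 7.17% of the 1967 kept Selinexor cells (6.07 to 8.40%). These shares describe the selection, which counts transcripts and therefore depends on depth. At any depth, 563 DMSO and 308 Selinexor cells met the transcript part of the rule. Of these, 83.5% (80.2 to 86.5%) of the DMSO cells and 45.8% (40.1 to 51.5%) of the Selinexor cells had 2000 or more UMIs. The Selinexor library thus held 167 cells with the same transcripts below the depth limit and the DMSO library 93. Members held a median of 7282.5 UMIs in DMSO and 4445 in Selinexor, with 1973 and 1380 detected genes. Fewer cells of a kind and less RNA captured per cell both lower the member count, and their parts were not tested.

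**Figure D1:**
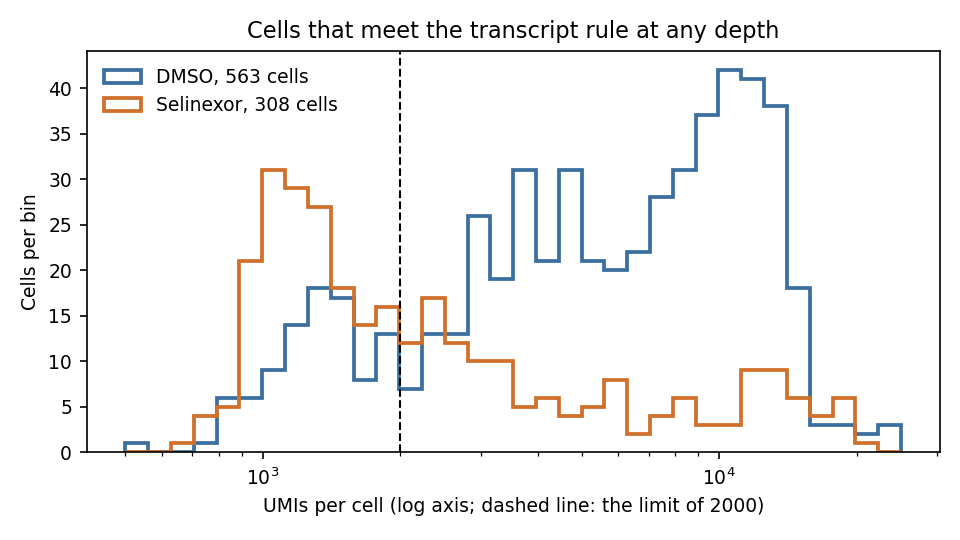
Number of cells per bin (vertical axis) against UMIs per cell (horizontal, log axis) for the 563 DMSO and 308 Selinexor cells that met the transcript rule at any depth, with 1 line per library and a dashed line at the limit of 2000 UMIs. Most DMSO cells lie to the right of the line, whereas 167 of the 308 Selinexor cells lie to its left.

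Near the limits, 72 DMSO and 27 Selinexor members had exactly 3 marker UMIs, and 89 and 43 other cells missed the rule at 2 marker UMIs alone. At the depth limit, 6 DMSO and 9 Selinexor members had under 2200 UMIs, and 9 and 16 cells with the same transcripts had 1800 or more but under 2000. The median marker sum was 6 UMIs in both libraries. Among the markers that chose the cells, Il1r2 was detected in 454 of 470 DMSO and 122 of 141 Selinexor members. Cxcr2, the receptor for the neutrophil-attracting CXC chemokines, was detected in 263 and 73. Mmp9, the gelatinase of the late granules, was detected in 201 and 78. Slfn4 was detected in 73 and 32 members and Retnlg, a secreted resistin-like protein, in 33 and 20. Il1r2 was the sole marker in 136 DMSO and 29 Selinexor members.

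Genes that the rule did not use gave a mixed answer on the name. S100a8 and S100a9 together took a median of 13.7% of a member's UMIs in the DMSO library and 9.79% in the Selinexor library. They took 3% or more in 364 DMSO members (77.4%, interval 73.4 to 81.1%) and 92 Selinexor members (65.2%, 56.8 to 73.1%), called S100-rich here. They took under 1% in 75 DMSO members (16.0%, 12.8 to 19.6%) and 41 Selinexor members (29.1%, 21.7 to 37.3%), called S100-low. Both limits were set after these values had been seen. The groups are ranges of a continuous share, with 28 DMSO and 4 Selinexor members between 2% and 4%. High levels of both genes were not confined to members. In pooled counts S100a8 stood at 67678 CPM (UMIs of the gene per 1000000 gene UMIs) in DMSO members and 46320 CPM in Selinexor members. In non-members that met the depth limit it stood at 56685 and 37623 CPM. S100a9 stood at 61391 and 43229 CPM in members and at 57461 and 39036 CPM in those other cells. These genes therefore told members from other cells only weakly. Lcn2, an iron-binding granule protein, and Mmp8, the neutrophil collagenase, were well detected, with 11145 and 4557 UMIs in the DMSO and 2862 and 2101 in the Selinexor members. Both were also common in non-members that met the depth limit. With every cell thinned to that limit, Lcn2 was found in 79.1% of DMSO members and 72.7% of these non-members. The intervals overlap (75.2 to 82.7% and 69.7 to 75.5%). In Selinexor it was found in 75.2% (67.2 to 82.1%) and 58.2% (55.1 to 61.2%). Mmp8 was found in 72.6% and 49.5% in DMSO, and in 78.0% and 60.1% in Selinexor. Ly6g, the surface antigen that defines mouse neutrophils, had 29 and 6 UMIs in all, and Hdc, which makes histamine, had 35 and 8, so these markers were close to 0.

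Part of the S100-low members went against the name. MHC class II genes, which present antigen in dendritic cells and macrophages, took 1% or more of the UMIs of 32 of the 75 S100-low DMSO members and 15 of the 41 S100-low Selinexor members. Among the S100-rich members 1 of 364 and 0 of 92 reached that share. Cd74, the MHC class II invariant chain, stood at 8095 CPM in S100-low DMSO members and 6240 CPM in S100-low Selinexor members. In S100-rich members it stood at 336 and 84.7 CPM. Ccl17, a chemokine of activated dendritic cells, had 1105 of its 1121 DMSO UMIs and its 277 Selinexor UMIs all in S100-low members. The other S100-low members stayed under 1%, and the median share over the S100-low members was 0.702% in DMSO and 0.126% in Selinexor. Neutrophil markers outside the rule were mixed in S100-low members. Mmp8 stood at 700 and 1382 CPM in them, and at 1411 and 2902 CPM in S100-rich members. Mmp8 UMIs were not confined to neutrophil-like cells. At equal depth 57.6% of DMSO and 66.7% of Selinexor reference cells with macrophage C1q genes, described below, held it. These shares rest on 33 and 12 cells, and whether free RNA in droplets gave them these UMIs was not tested. Csf3r, the G-CSF receptor gene, stood at 12.9 and 28.3 CPM in S100-low members, on 10 and 12 UMIs. In S100-rich members it stood at 88.7 and 161 CPM. The surface receptor list below summed to 4814 CPM in S100-low and 4532 CPM in S100-rich DMSO members. The S100-low members were thus a mixed set, and values for the S100-rich members are given beside many of the results.

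**Figure D2:**
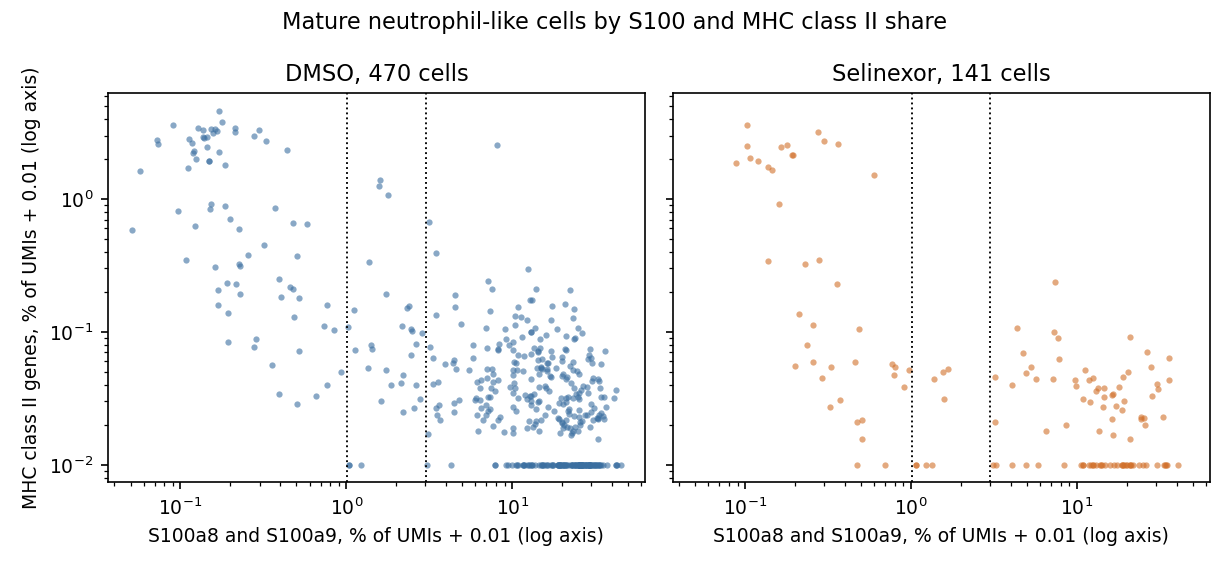
Each point is 1 member. The horizontal axis is the share of its UMIs from S100a8 and S100a9 and the vertical axis the share from MHC class II genes, both in percent plus 0.01 on log axes, and dotted lines mark 1% and 3%. In both libraries the members high in MHC class II lie almost entirely left of the 1% line, 32 of 75 DMSO and 15 of 41 Selinexor S100-low members being at 1% MHC class II or more.

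Most markers of basophils, T and NK cells and erythroid cells had few or no UMIs. Of 8 basophil and mast cell genes, 10 T and NK cell genes and 10 erythroid and megakaryocyte genes, 1 gene in all reached 30 UMIs, Car2, a carbonic anhydrase, with 55 DMSO and 5 Selinexor UMIs. Of the eosinophil list Ear6, a secreted ribonuclease, had 12 and 25 UMIs. Cd3e, Trac, Mcpt8, Cpa3, Prg2, Epx, Klf1 and the haemoglobin genes had 0 UMIs in both libraries. The B cell list summed to 8.98 CPM in DMSO and 445 CPM in Selinexor members, most of it from Ighm, described below. The dendritic cell list summed to 3747 CPM in DMSO and 5324 CPM in Selinexor members, and to 474 and 157 CPM in the S100-rich members. The macrophage list summed to 707 and 565 CPM, and to 424 and 322 CPM in the S100-rich members.

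The comparison sets the transcripts of these cells in the Selinexor library beside those in the DMSO library. Binding of selinexor to exportin 1 was not measured here. Counts were summed over the members of each library and scaled to CPM, and a difference is log2(CPM + 1) in Selinexor minus DMSO, so ratios of sparsely counted genes are shrunk towards 0. A gene counted as measured with at least 30 UMIs in the members of both libraries together. The members gave 7884 measured genes. In Selinexor members 1629 of them (20.7%) were higher by 1.5-fold or more, and 617 (7.83%) were lower by as much. The median gene was 0.16 higher. S100-low members held 776823 of the 3679592 DMSO UMIs and 423868 of the 962149 Selinexor UMIs. They thus made up a larger part of the Selinexor sums. With TMM scaling, which moved every gene by -0.25, the split turned to 809 higher and 1268 lower, and with median-of-ratios scaling (-0.23) to 833 and 1230. Over S100-rich members 6529 genes were measured, 1299 higher (19.9%) and 1051 lower (16.1%), with a median of 0.05. Counts of list members below are read against these background shares.

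Xpo1, which encodes the drug's target, had 179 UMIs in DMSO members (48.7 CPM) and 221 in Selinexor members (230 CPM). The log2 difference was 2.22 (interval 1.95 to 2.53). It was 1.87 in the S100-rich members, 2.76 in members with 2000 to 5000 UMIs and 1.39 in the other cells of 2000 or more UMIs. After each cell was thinned to 2000 UMIs, Xpo1 was detected in 6.81% of DMSO members (4.70 to 9.48%) and 34.8% of Selinexor members (26.9 to 43.2%), against 28.5% and 66.0% before thinning. The intervals did not overlap. The gene lies on chromosome 11 from 23256041 to 23298249 on the plus strand (GRCm38).

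The other nuclear transport receptors, which include the importins and the exportins that share the Ran cycle, differed less. Of 30 measured genes of the transport receptor list, which counts Xpo1 too, 8 were at least 1.5-fold higher (26.7% against 20.7% of genes). Lower by as much were 0 (against 7.83%), and the median was 0.47. Kpna3, an importin alpha that binds classical import signals, had 65 DMSO and 44 Selinexor UMIs, a difference of 1.32. Tnpo2, a transportin, had 41 and 27 UMIs (1.26), and Xpo6, the exportin of actin and profilin, had 107 and 57 UMIs (1.00). In S100-rich members 7 of 27 were higher (25.9% against 19.9%) and 4 lower (14.8% against 16.1%), with a median of 0.19. In members with 2000 to 5000 UMIs the median was -0.05, with Kpna3 and Tnpo2 both at 0.18, whereas Xpo1 stayed at 2.76.

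The genes with the highest ratios were led by Ighm, the constant region of the immunoglobulin mu chain, on chromosome 12 from 113418558 to 113422730, minus strand. It had 28 UMIs in DMSO members (7.62 CPM) and 425 in Selinexor members (442 CPM), a difference of 5.68 (5.31 to 6.47 for the plain CPM ratio). Other B cell markers were absent or nearly so: Cd79a, Ms4a1 and Jchain had 0 UMIs, and Cd79b had 3 DMSO UMIs. After thinning, Ighm was detected in 1.49% of DMSO members and 56.7% of Selinexor members (48.1 to 65.0%). It was detected in 70.7% of the S100-rich Selinexor members. Among other cells of the Selinexor library the thinned share was 32.4%, and the difference there was 3.58. So Ighm UMIs were not confined to the members.

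Fam122b, on the X chromosome, had 14 DMSO and 89 Selinexor UMIs (3.81 and 92.6 CPM), a difference of 4.28 in every member together and 4.81 in S100-rich members. Slc16a6, a monocarboxylate transporter family member, had 151 and 235 UMIs (41.1 and 245 CPM), a difference of 2.54 (2.27 to 2.88). Its thinned share was 8.30% of DMSO and 44.7% of Selinexor members. Btg3, an antiproliferative gene, had 41 and 68 UMIs, a difference of 2.56, and its thinned share was 1.28% against 11.3%. These 3 genes were also higher in the S100-rich members, in members of 2000 to 5000 UMIs, and in the other cells, where the differences were 2.95, 1.89 and 1.28.

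Fn1, which encodes fibronectin, had 251 DMSO and 300 Selinexor UMIs, a difference of 2.18. It was 1.67 in the S100-rich members and 2.97 in the other cells. Klhl24, Foxn3, Pik3ca, the catalytic subunit of a phosphoinositide 3-kinase, and Sgk1, a kinase downstream of it, differed by 2.15, 2.10, 2.04 and 1.96, and in S100-rich members by 2.90, 2.10, 2.14 and 1.74. The next pair differed less within S100-rich members. Hmgn1, a nucleosome-binding protein, had 215 of its 279 Selinexor UMIs in S100-low members and its difference went from 2.16 to 0.95 in S100-rich members. Cbfa2t3, a transcriptional corepressor, went from 1.83 to 0.26.

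Of 32 measured surface receptors of neutrophils outside the rule, 9 were higher (28.1% against 20.7% of genes) and 2 lower (6.25% against 7.83%), shares near the background. The median of 0.25 became 0.00 with TMM scaling. Over S100-rich members 11 were higher (34.4% against 19.9%) and 2 lower (6.25% against 16.1%). The split differed with depth. At 2000 to 5000 UMIs 14 of 28 were higher and 1 lower, with a median of 0.56, where 583 of 3047 genes were higher and 601 lower. In members over 5000 UMIs 4 of 30 were higher and 8 lower, where 1650 of 7453 genes were higher and 644 lower. Cd14, the lipopolysaccharide coreceptor, had 261 DMSO UMIs (71.0 CPM) and 181 Selinexor UMIs (188 CPM), a difference of 1.39 (1.12 to 1.69). Its thinned share was 14.9% of DMSO and 31.9% of Selinexor members. Tnfrsf1b, a tumour necrosis factor receptor, had 147 and 101 UMIs, a difference of 1.37, and 1.52 in S100-rich members. Csf3r, the receptor for the granulocyte growth factor G-CSF, had 269 and 100 UMIs. Its difference was 0.50 in all members, 0.85 in S100-rich members and -0.45 in the other cells, and -0.76 in members over 5000 UMIs. Il1rap, the coreceptor of interleukin-1, was lower, with 154 and 21 UMIs (-0.91, and -1.01 in S100-rich members).

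Granule genes outside the rule showed no common direction. Mmp8 had 4557 DMSO UMIs (1240 CPM) and 2101 Selinexor UMIs (2186 CPM), a difference of 0.82, and 1.04 in S100-rich members. Its thinned share was 72.6% and 78.0%, with intervals that overlap. Cfp, the complement protein properdin held in specific granules, had 1947 and 287 UMIs (-0.83, and -1.14 in S100-rich members), and Olfm4, which marks a subset of neutrophils, had 72 and 6 (-1.51). Of 18 measured granule genes 5 were higher (27.8% against 20.7% of genes) and 2 lower (11.1% against 7.83%), with a median of -0.01. Over S100-rich members 6 of 17 were higher (35.3% against 19.9%) and 2 lower (11.8% against 16.1%), with a median of 0.45.

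The NADPH oxidase makes superoxide in neutrophils and has a membrane part and a cytosolic part. The membrane subunit Cybb had 1380 DMSO UMIs (376 CPM) and 762 Selinexor UMIs (793 CPM), a difference of 1.08 (0.95 to 1.21). Its membrane partner Cyba went the other way, with 9787 and 1771 UMIs (-0.53). Of the cytosolic subunits, Ncf1 had 552 and 237 UMIs (0.71) and Ncf4 had 956 and 159 (-0.65). In S100-rich members Cybb differed by 1.13 and Ncf1 by 0.69, while Ncf4 stood at -0.32. For members of 2000 to 5000 UMIs, Cybb stood at 0.30. After thinning 44.7% of DMSO and 51.8% of Selinexor members had a Cybb UMI, with overlapping intervals.

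S100a8 and S100a9 themselves had 248654 and 225553 DMSO UMIs and 44519 and 41548 Selinexor UMIs, or 67678 and 61391 CPM against 46320 and 43229 CPM. The differences were -0.55 and -0.51. No value is given within S100-rich members, since the same genes define them.

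Stefin A genes and Dmkn, which encodes a secreted protein best known from skin, were among the genes with the lowest ratios. Cstdc4, on chromosome 16 from 36184212 to 36188111, had 24781 UMIs in DMSO members (6745 CPM) and 1200 in Selinexor members (1249 CPM), a difference of -2.43 (-2.52 to -2.35). Cstdc5 had 9149 and 336 UMIs (-2.83) and Stfa1 had 2165 and 83 (-2.76). In S100-rich members Cstdc4, Cstdc5 and Stfa1 differed by -1.84, -2.38 and -2.26. Csta3 had 95 DMSO UMIs and 0 Selinexor UMIs, at least 8.28-fold lower when the Selinexor members are given a floor of 3 counts. These genes are near-identical neighbours, so reads can be split among them and the value of each copy is uncertain. Dmkn, on chromosome 7, had 499 and 8 UMIs, a difference of -3.88 (-5.25 to -3.04), and -3.59 in S100-rich members.

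The values of these genes differed with depth per cell. In members over 5000 UMIs, 308 DMSO and 65 Selinexor cells, Stfa1 differed by -3.66, Cstdc5 by -3.26 and Cstdc4 by -2.85. Among members of 2000 to 5000 UMIs, 162 DMSO and 76 Selinexor cells, Cstdc4 was still lower (-1.36) and Cstdc5 stood at -0.60, but Stfa1 was higher, at 0.98, with 57 and 44 UMIs. Dmkn had 2 UMIs in each library there, so its 499 DMSO UMIs came almost wholly from the deeper cells. In cells under 2000 UMIs with the same transcripts Cstdc5 was 1.27 and Stfa1 0.74 higher, and Cstdc4 stood at -2.93. Thinned to 2000 UMIs, Cstdc4 was detected in 70.0% of DMSO and 37.6% of Selinexor members, and Dmkn in 13.2% and 1.42%. Of the 28 measured genes of late maturation 10 were lower (35.7% against 7.83% of genes) and 4 higher, with a median of -0.52. Over S100-rich members 9 of 27 were lower (33.3% against 16.1%) and 5 higher (18.5% against 19.9%), with a median of -0.16. In members of 2000 to 5000 UMIs 5 of 24 were lower and 8 higher, with a median of -0.14, where 601 of 3047 genes were lower and 583 higher. Gda, a guanine deaminase, and Btg1, an antiproliferative gene, were among the higher ones, at 1.25 and 1.13.

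**Figure D3:**
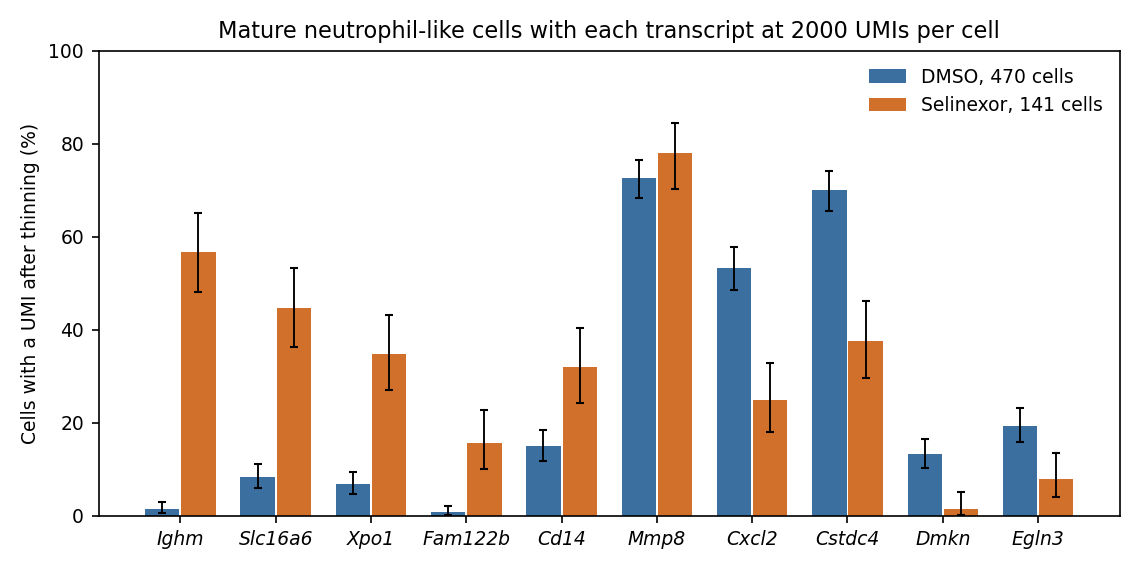
Share of members with at least 1 UMI of each of 10 genes after every cell was thinned to 2000 UMIs, for 470 DMSO (blue) and 141 Selinexor (orange) members, with exact 95% binomial intervals as whiskers. Ighm, Slc16a6 and Xpo1 are detected in more Selinexor members, Cxcl2 and Cstdc4 in more DMSO members, and the Mmp8 intervals overlap.

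Free RNA in droplets can give a cell UMIs of genes it does not express, so the same shares were taken in reference cells outside the class with at least 5 UMIs of the macrophage genes C1qa, C1qb and C1qc. There were 33 in the DMSO and 12 in the Selinexor library, with median depths of 11551 and 13138 UMIs. Thinned in the same way, they held Ighm in 6.06% and 33.3%, Btg3 in 9.09% and 8.33%, Slc16a6 in 6.06% and 16.7%, and Fam122b in 0% and 8.33%. The members' DMSO shares of Ighm (0.60 to 3.04%) and Btg3 (0.47 to 2.76%) lie below these. The DMSO reference intervals, 0.74 to 20.2% and 1.92 to 24.3% on 33 cells, overlap them. In the Selinexor library the reference intervals, 9.92 to 65.1% for Ighm and 2.09 to 48.4% for Slc16a6, overlap those of the members. They rest on 12 cells and are too wide to decide on free RNA. Cells of the cultures were pooled ahead of capture. In the other cells, the thinned share of Ighm was 2.92% in DMSO (1.95 to 4.19%) and 32.4% in Selinexor (29.6 to 35.3%). That of Slc16a6 was 8.97% and 31.7%. The source of these UMIs was not tested. Cstdc4 was found in 36.4% and 16.7% of the reference cells, and Dmkn in 3.03% and 0% (0 of 12, an exact interval up to 26.5%). Mmp8 was found in 57.6% (39.2 to 74.5%) and 66.7% (34.9 to 90.1%), intervals that overlap those of the members. Cxcl2, which macrophages also make, was found in 19 of 33 and 3 of 12.

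Among secreted factors, the neutrophil chemoattractant Cxcl2 was lower in every set of cells compared. It had 2775 UMIs in DMSO members (755 CPM) and 197 in Selinexor members (205 CPM), a difference of -1.88 (-2.10 to -1.67). It was -1.41 in S100-rich members, -1.53 in members of 2000 to 5000 UMIs and -1.69 in the other cells. The thinned share was 53.2% of DMSO members (48.6 to 57.8%) and 24.8% of Selinexor members (17.9 to 32.8%). Cxcl3, its close homologue, had 94 and 7 UMIs (-1.68). Saa3, an acute-phase protein, had 2584 and 201 UMIs (-1.74), and -2.25 in S100-rich members.

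Il1b, the inflammatory cytokine interleukin-1 beta, had 621 and 119 UMIs and a difference of -0.45, short of 1.5-fold. Tnf had 122 and 19 UMIs (-0.72), but stood at 0.03 in members of 2000 to 5000 UMIs. Ccl22, a dendritic cell chemokine, had 14 DMSO and 48 Selinexor UMIs, a difference of 3.40. Its 48 Selinexor UMIs all lay in S100-low members, and among S100-rich members the counts were 11 and 0. Of 21 measured chemokines and cytokines 5 were higher (23.8% against 20.7% of genes) and 5 lower (23.8% against 7.83%). The S100-rich members had 2 of 15 higher (13.3% against 19.9%) and 5 lower (33.3% against 16.1%).

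Over all members most measured genes of the type I interferon response were lower, and few could be measured in the shallower members. These genes are switched on by interferon, and many carry the interferon-stimulated response element, a repeat of GAAA letters, near their start. Isg15, a ubiquitin-like modifier, had 66 DMSO UMIs and 2 Selinexor UMIs, a difference of -2.62 (-6.19 to -1.20). Irf7, a transcription factor of the interferon response, had 65 and 2 (-2.60, interval -6.16 to -1.18). Ifit1, which binds foreign RNA, had 30 and 0 UMIs. Of 20 measured genes 11 were at least 1.5-fold lower (55.0% against 7.83% of genes) and 1 was higher, with a median of -0.83. In S100-rich members 10 of 16 were lower (62.5% against 16.1%), with a median of -1.16. With genes at 0 in a library set to the bound of 3 counts, the medians were -0.83 and -1.11. Among members of 2000 to 5000 UMIs, 6 genes of the list reached 30 UMIs, 3 higher and 2 lower, and their median was 0.08. Of all 3047 genes measured in those members, 583 were higher and 601 lower. After thinning to 2000 UMIs the median of the list was 0.04. The summed level of the list was 739 CPM in DMSO and 594 CPM in Selinexor members, 721 and 722 CPM in S100-rich members, and 1030 and 1452 CPM in members of 2000 to 5000 UMIs. Isg15, below that count, had 17 DMSO UMIs and 1 Selinexor UMI there. Thinned shares of Ifitm3 were 74.0% of DMSO (69.8 to 78.0%) and 36.2% of Selinexor members (28.3 to 44.7%). Those of Isg15 were 2.98% and 0.71% and those of Irf7 4.26% and 1.42%, with overlapping intervals. The other cells of 2000 or more UMIs had 14 of 23 list genes lower and 1 higher, with a median of -0.93. Of 4641 genes with at least 100 UMIs in members and in those cells, 202 were lower and 264 higher there.

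Upstream bases of Isg15 and Ifit1 are shown because these are the interferon genes with the lowest ratios whose upstream windows hold the response element. The sequences are RefSeq's for GRCm38.p6, read 5′ to 3′ in the direction of the gene, and capitals mark the letters GAAANNGAAA or, on the other strand, TTTCNNTTTC, where overlapping matches run together. The Isg15 window is chr4:156200830-156200929 on the minus strand, from 111 to 12 bases before the start. The Ifit1 window is chr19:34640759-34640858 on the plus strand, from 130 to 31 bases before the start.
Isg15: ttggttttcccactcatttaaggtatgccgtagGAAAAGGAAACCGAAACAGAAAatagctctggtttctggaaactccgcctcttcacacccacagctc
Ifit1: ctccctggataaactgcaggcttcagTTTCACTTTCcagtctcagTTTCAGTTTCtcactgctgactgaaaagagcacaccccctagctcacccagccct
Of the 15 measured list genes with an upstream sequence of 250 bases, 8 held this motif (53.3%), against 2.98% of 32851 promoters. Of the 9 that were lower, 5 held it.

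Glycolysis and hypoxia genes were lower as a group. Hypoxia-inducible factors bind a core of ACGTG letters and raise glucose transport, glycolysis and mitochondrial clearance. Of 30 measured genes 11 were lower (36.7% against 7.83% of genes) and 1 was higher, with a median of -0.49, against 10 lower and 0 higher of 28 in S100-rich members (35.7% against 16.1%). In members of 2000 to 5000 UMIs 8 of 24 were lower and 2 higher, with a median of -0.27. Of all 3047 genes measured at that depth, 601 were lower and 583 higher.

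Egln3, an oxygen sensor that is itself induced by hypoxia-inducible factors, had 410 DMSO UMIs (112 CPM) and 30 Selinexor UMIs (31.2 CPM), a difference of -1.81 (-2.42 to -1.30). It was -1.19 in S100-rich members and -2.25 in the other cells. Mif, a cytokine, had 3308 and 375 UMIs (900 and 390 CPM), a difference of -1.20, and its thinned share was 68.5% against 40.4%. In S100-rich members it was -1.37, and in members of 2000 to 5000 UMIs it was -1.38. Slc2a1, the glucose transporter GLUT1, had 423 and 56 UMIs (-0.97, and -1.23 in S100-rich members). Enzymes of glycolysis were lower too, with Gapdh at 8809 and 1239 UMIs (-0.89), Tpi1 at 1953 and 266 (-0.94) and Pgk1 at 1732 and 254 (-0.83). Fam162a, a mitochondrial protein outside the list, had 1406 and 91 UMIs (-2.00), and -1.80 in S100-rich members. Bnip3, which marks mitochondria for removal, had 360 and 47 UMIs (-0.99), but stood at 0.32 in members of 2000 to 5000 UMIs. Hif1a itself had 433 and 134 UMIs (0.24).

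Upstream bases of Bnip3 and Pgk1, a mitophagy gene and an enzyme of the list, show the core motif in capitals, ACGTG or CACGT on the other strand, on the same reference and orientation. In Bnip3 the 2 matches overlap. The Bnip3 window is chr7:138909562-138909661 on the minus strand, from 155 to 56 bases before the start. The Pgk1 window is chrX:106186921-106187020 on the plus strand, from 179 to 80 bases before the start.
Bnip3: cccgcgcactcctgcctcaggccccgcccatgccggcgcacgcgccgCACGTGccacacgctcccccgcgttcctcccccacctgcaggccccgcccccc
Pgk1: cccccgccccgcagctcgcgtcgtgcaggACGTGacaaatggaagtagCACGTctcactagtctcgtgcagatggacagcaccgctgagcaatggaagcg
Of 27 measured list genes with an upstream sequence 17 held the core (63.0%), against 16.6% of 32851 promoters, and 5 of the 10 lower ones held it. A match is a description of the letters and does not show that a factor bound there.

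**Figure D4:**
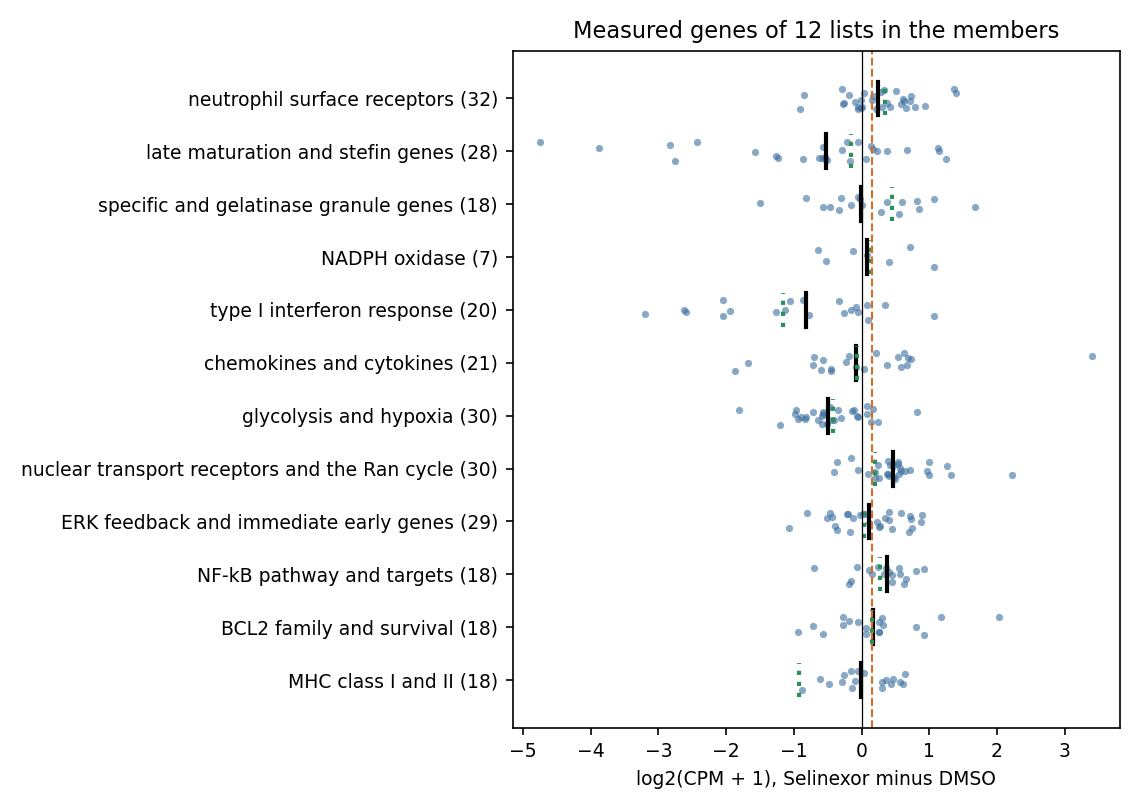
Each blue point is 1 measured gene of 12 lists, on the scale of log2(CPM + 1), Selinexor minus DMSO, with the number of measured genes in brackets. Black bars are the list medians over all members, dotted green bars those over S100-rich members, and the dashed line is the median of 7884 genes (0.16). The medians of the interferon and of the glycolysis and hypoxia lists lie left of that line in both sets of members, while the MHC list has medians of -0.01 and -0.93.

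Genes of T cell suppression gave few counts. Arg1 and Nos2, the arginine-consuming enzymes most used to define suppressor cells, had 4 and 16 DMSO UMIs and 0 Selinexor UMIs, and Ptgs2 had 7 in each library. Nos2 was at least 1.40-fold lower with the same floor of 3 counts, and Arg1 was too near the floor for a ratio. Cd274, which encodes the checkpoint ligand PD-L1, had 79 and 53 UMIs, a difference of 1.32 (0.83 to 1.88), and 1.37 in S100-rich members. Its thinned share was 2.77% of DMSO (1.48 to 4.68%) and 7.80% of Selinexor members (3.96 to 13.5%). These intervals overlap. The reference cells with C1q genes held it in 9.09% (1.92 to 24.3%) and 8.33% (0.21 to 38.5%). Those intervals are too wide to tell the members' UMIs from free RNA, and this was not tested. Olr1, the oxidised lipoprotein receptor LOX-1, had 32 and 30 UMIs (1.73). Arg2 had 218 and 40 UMIs (-0.50). Of 14 measured suppression genes 5 were higher (35.7% against 20.7% of genes) and 0 lower (against 7.83%). Their median of 0.23 was -0.01 with TMM scaling. Over S100-rich members 4 were higher (28.6% against 19.9%) and 1 lower (7.14% against 16.1%).

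ERK feedback and immediate early genes split. Egr1, an immediate early transcription factor, had 391 and 48 UMIs, a difference of -1.08 (-1.56 to -0.66), with -1.11 in S100-rich members. Dusp6, a phosphatase that switches ERK off, had 143 and 70 UMIs (0.89), and 1.48 in S100-rich members. Of 29 measured genes 6 were higher (20.7%, as over all genes) and 2 lower (6.90% against 7.83%), shares at the background. Their median of 0.11 turned to -0.13 with TMM scaling. Etv3 was 0.88 higher, with 98 and 48 UMIs, but stood at -0.03 in S100-rich members.

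Survival genes had no common direction. Bcl2l11, the pro-apoptotic BIM, had 192 and 114 UMIs, a difference of 1.17 (0.84 to 1.52), and 1.37 in S100-rich members. Birc3, an inhibitor of apoptosis and an NF-kB target, had 125 and 63 UMIs (0.93). Bid and Bad, both pro-apoptotic, had 91 and 12 UMIs (-0.93) and 204 and 32 UMIs (-0.72), and differed by -2.29 and -0.92 in S100-rich members. Mcl1, on which neutrophil survival depends, had 1896 and 594 UMIs and a difference of 0.26, and -0.04 in members over 5000 UMIs. Of 18 measured genes 4 were higher (22.2% against 20.7% of genes) and 2 lower (11.1% against 7.83%). The S100-rich members had 5 of 15 higher (33.3% against 19.9%) and 2 lower (13.3% against 16.1%).

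Of 18 measured NF-kB genes 4 were higher (22.2% against 20.7% of genes) and 1 lower (5.56% against 7.83%). Their median of 0.38 was 0.15 with TMM scaling. Over S100-rich members 5 were higher (27.8% against 19.9%) and 0 lower (against 16.1%). Nfkb2, a subunit of the factor, had 128 and 59 UMIs (0.80), and Sod2, a mitochondrial superoxide dismutase, 1654 and 266 (-0.70). Of 16 measured p53 targets 3 were higher (18.8% against 20.7%) and 0 lower (against 7.83%). The S100-rich members had 3 of 13 higher (23.1% against 19.9%) and 0 lower (against 16.1%). Fas, a death receptor, had 170 and 73 UMIs (0.70), but stood at -0.85 in members over 5000 UMIs. Mdm2, the ligase that degrades p53, had 134 and 48 UMIs (0.44, interval -0.05 to 0.94).

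Of 22 measured myeloid transcription factors 6 were higher (27.3% against 20.7% of genes) and 2 lower (9.09% against 7.83%), shares near the background. Over S100-rich members 4 of 20 were higher (20.0% against 19.9%) and 1 lower (5.0% against 16.1%). Cebpa, which drives granulocyte commitment, had 63 and 34 UMIs (1.00), Runx1 had 399 and 179 (0.77) and Nfe2 had 146 and 63 (0.71). Cebpe, the factor of specific granule formation, had 101 and 19 UMIs (-0.46), and Spi1, which encodes PU.1, had 1644 and 416 (-0.05).

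Most antigen-presentation and macrophage transcripts lay in the S100-low members. H2-Ab1, an MHC class II beta chain, had 2299 DMSO and 923 Selinexor UMIs, of which 2070 and 912 lay in S100-low members. Its difference was 0.62 over all members, -0.31 within S100-low members and -1.09 within S100-rich members. H2-Eb1, another class II beta chain, gave 0.64, -0.25 and -1.05. C1qa, a complement subunit of macrophages, had 253 and 12 UMIs (-2.37), 216 and 12 of them in S100-low members. Asgr2, a lectin receptor subunit, had 230 and 14 UMIs (-2.03), 224 and 14 of them there. Gpnmb, a glycoprotein of macrophages, went the other way, with 24 and 50 UMIs (2.82), and 2.64 in S100-rich members. Of 13 measured macrophage markers 4 were higher (30.8% against 20.7% of genes) and 7 lower (53.8% against 7.83%). The S100-rich members had 2 of 9 higher (22.2% against 19.9%) and 6 lower (66.7% against 16.1%). Of 11 measured monocyte markers 3 were higher (27.3% against 20.7%) and 2 lower (18.2% against 7.83%). Over S100-rich members 2 were higher (18.2% against 19.9%) and 3 lower (27.3% against 16.1%). The monocyte gene Ms4a6c had 207 and 10 UMIs (-2.33), and -3.79 in S100-rich members. Ccr2, the monocyte chemokine receptor, had 603 and 97 UMIs (-0.70), but stood at 0.89 in members of 2000 to 5000 UMIs, on 8 and 6 UMIs. In S100-rich members it was -2.30.

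The other cells of 2000 or more UMIs, 959 in the DMSO and 1043 in the Selinexor library, were set beside the members on 4641 genes with at least 100 UMIs in each set. Members had 739 genes higher and 333 lower, and the other cells had 264 higher and 202 lower. Of the 739 genes higher in members, 181 were also at least 1.5-fold higher in the other cells and 2 were lower. Of the 333 lower genes, 115 were also lower in the other cells and 0 were higher. The difference between the sets was not tested, since each rests on the same 2 libraries.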

How the data were processed

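The authors deposited raw UMI counts per gene and cell barcode, 1 matrix per library, made with Cell Ranger 6.1.2 against mm10, per the submitters' processing notes. The sources used here name neither the annotation release nor the rule for choosing barcodes. The tables list 32285 genes and 12 multiplexing tags, and tags entered no gene total. Of 1784 DMSO and 1989 Selinexor barcodes, 1743 and 1967 were kept. No barcode was shared (0), and every member had its own library's tag on top. Members held 3679592 DMSO and 962149 Selinexor UMIs, and DMSO members were the more precisely measured. Doublets were not removed, and members over 20000 UMIs were left out as an alternative.

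Each library's member counts were added up and converted to CPM with Python 3.11.15, and log2(CPM + 1) was compared, with a pseudocount of 1 CPM. The genes of the rule and mitochondrial genes were left out. With 1 library per group there was no test. Intervals are exact conditional binomial for CPM ratios and Clopper-Pearson for shares. The calculation was tested on simulated data with known fold changes. TMM factors came from edgeR 4.0.16 in R 4.3.3. Thinning drew 2000 UMIs per cell. Motifs were searched in the 250 bases before each RefSeq start, and gene positions are from GENCODE on GRCm38, matched by Ensembl identifier.

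The members and the 25 gene lists were chosen with earlier results of these data known, and the lists support nothing on their own. Genes named are 16 chosen genes, the 12 highest and the 12 lowest among those with 100 UMIs and 50 CPM whose sign held with cells weighted equally and after thinning, and up to 4 per list with 60 UMIs. Markers of the class, markers at 0, Ccl17, Cd74, Ear6, Cd79b, Ifit1, Hif1a, Gapdh, Tpi1, Pgk1, Gda, Btg1, Cebpe, Spi1, Lcn2 and Hdc were named outside that rule after their values were seen. The S100 ranges and the members over 5000 UMIs were also added after seeing the data. Some list members are not reported here.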

Additional observations from a re-analysis of the deposited data

Results flagged for a closer look

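H2-Ab1 had a difference of 0.62 in the members and -0.64 in the other cells of 2000 or more UMIs, opposite directions under the same contrast. The difference between these was not tested. Of its UMIs, 2070 of 2299 in DMSO and 912 of 923 in Selinexor members lay in S100-low members.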

How the results depend on the processing

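With 6 or more marker UMIs the members made up 15.8% of kept DMSO and 3.71% of kept Selinexor cells. A limit of 3000 UMIs gave 24.3% and 4.88%, a limit of 1000 UMIs 31.4% and 14.0%, and the rule after thinning 11.8% and 4.02%. S100-rich members were 20.9% and 4.68%, DMSO members without those rich in other myeloid markers 24.7%, and members of the cells with 2000 or more UMIs 32.9% and 11.9%. DMSO stood above Selinexor under each of these. Genes at least 1.5-fold higher numbered 809 with TMM, 833 with median-of-ratios, 902 after thinning, 583 at 2000 to 5000 UMIs and 739 at 100 or more UMIs per gene. Genes lower numbered 1268, 1230, 1143 with cells weighted equally, 1051 over S100-rich members, 1003 at 10 or more UMIs per gene and 333 at 100 or more. Thinning and the 2000 to 5000 range test fewer genes. Of the values past 1.5-fold over all members, these turned direction. The interferon median was 0.036 after thinning and 0.079 at 2000 to 5000 UMIs, and the macrophage median was 0.34 without members rich in other myeloid markers. Ccl22 was -0.83 with 6 or more marker UMIs, and without members rich in other myeloid markers Ccl22 was -2.15, Etv3 -0.18, H2-Eb1 -0.89 and H2-Ab1 -1.06. Over S100-rich members Ccl22 was -2.36, Etv3 -0.028, H2-Eb1 -1.05 and H2-Ab1 -1.09. At 2000 to 5000 UMIs H2-Ab1 was -0.72, Ccr2 0.89, Tnf 0.033, Bnip3 0.32 and Stfa1 0.98, and over 5000 UMIs Fas was -0.85. Medians of lists short of 1.5-fold changed sign too, among them dendritic markers at -1.09 and monocyte markers at -0.21 over S100-rich members, granule genes at 0.45 there, nuclear transport at -0.046 and monocyte markers at -0.75 at 2000 to 5000 UMIs, and receptors at -0.0035 over 5000 UMIs. The cause of these was not tested. Of 78 named genes past 1.5-fold, 66 kept direction and size with TMM and with median-of-ratios, 69 after thinning and 77 without members over 20000 UMIs. Of 65 with at least 10 UMIs at 2000 to 5000 UMIs, 48 did. Genes under 10 UMIs in a setting gave no value there. No paired analysis was possible because each group has 1 library. No library could be left out.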
